A study of Mus musculus with 19 samples.

Results

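The insulin-like growth factor genes described here were Igf1, the receptors Igf1r and Insr, and the binding protein genes Igfbp1 to Igfbp7. They were taken by gene symbol from the deposited tables of RefSeq transcript counts and of RPKM (reads per kilobase of transcript, scaled to the mapped reads of the library), and all 10 were present, as 15 of the 30455 transcript rows and as 10 of 23337 genes. The study asked how far cystic embryoid bodies (cystic EBs), hollow aggregates differentiated from mouse embryonic stem (ES) cells, can stand for the endoderm of the visceral yolk sac (VYS). RNA was sequenced from E12.5 VYS endoderm (ysE, 1 library), E9.25 ysE (2 libraries), E9.25 VYS mesoderm (2 libraries), E12.5 fetal liver (2 libraries) and cystic EBs at d10 and d15 (4 libraries). The 7 tissue libraries came from wild-type FVB/N embryos with a whole litter pooled for each sample, whereas the EBs came from ES clones of C57BL/6×129 background, A9 (replicate A) and JN (replicate B), each differentiated for 10 and 15 days. The replicates of the EBs were therefore different clones, and the E9.25 mesoderm samples also contained blood vessels and basement membrane. Cytosine methylation was measured in ysE at E12.5, E12.5 liver and d15 cystic EBs from reciprocal crosses of CAST/EiJ and FVB/N (CxF and FxC, 1 library each per tissue, the EBs from other ES clones than those used for RNA), and the histone mark H3K4me3 in whole E12.5 FVB/N VYS (1 library).

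Insulin-like growth factors are secreted peptides that promote growth of the embryo and its membranes. They act through the receptor tyrosine kinase encoded by Igf1r and, together with insulin, through that encoded by Insr, which pass the signal to adaptor proteins and the PI3 kinase arm. The binding proteins hold the peptides in the fluid outside cells, where they prolong the life of the ligand, restrict its access to the receptor or, after cleavage by proteases, release it. The fetal liver and the yolk sac endoderm are known sites of secretion of these proteins.

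The libraries held between 40453779 and 169981821 transcript counts, the lowest in the single E12.5 ysE library. They were prepared by different protocols, namely non-stranded cDNA for E12.5 ysE, dUTP for the E9.25 layers and the JN EBs, and ScriptSeq for liver and the A9 EBs. E12.5 ysE and its protocol cannot be told apart. The summed level of 5 endoderm markers (Afp, Ttr, Apoa1, Apob, Hnf4a; none at 0 in any library) was 42906 RPKM in ysE at E12.5, 9895 and 10909 in ysE at E9.25, 1637 and 2958 in liver, 1057 and 1898 in mesoderm, and 143 to 1271 in the EBs. The summed level of 6 mesenchyme markers (Col1a1, Col1a2, Col3a1, Pdgfra, Pdgfrb, Dcn; none at 0) was 1279 and 1180 RPKM in mesoderm and 27.7 to 59.6 in the 3 ysE libraries, and the 5 erythroid markers summed to 22744 and 17823 RPKM in mesoderm. In liver the erythroid markers summed to 1169 and 1292 RPKM, in the 3 ysE libraries to 212 to 506 and in the EBs to 6.27 to 56.05. The mesoderm libraries thus also held endoderm and blood transcripts, and the liver libraries held blood transcripts. The part of these in the values below was not tested. The 3 pluripotency markers (Pou5f1, Nanog, Zfp42) summed to 64.3 to 137 RPKM in the EBs, with none at 0, and to 0.01 to 5.53 in the 7 tissue libraries, where Pou5f1 was at most 0.13 and Nanog at most 0.185. Igfbp2, Igfbp5 and Irs4 were also highest in these 4 libraries. Igfbp2 was high in mesoderm too (89.5 and 50.5 RPKM), where the pluripotency markers summed to 0.701 and 0.887. The 3 neural markers (Sox1, Pax6, Tubb3) likewise summed to 3.71 to 11.4 RPKM in the EBs and to at most 1.55 in the 7 tissue libraries. The part of either list in the values of Igfbp2, Igfbp5 and Irs4 was not tested. In bulk samples fewer cells of a type and less RNA per cell cannot be told apart.

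Promoter sequences were matched by symbol in a RefSeq table (GRCm38.p6, the assembly of the mm10 build used for the files) for 9 of the 10 genes, Insr being the exception. The 250 bases upstream of the start of 4 genes are shown because they span the tissue patterns described below and differ in base composition. Capitals mark a GC box (GGGCGG on either strand), which was found in 32.9% of 27025 promoters of this length.
Igf1r, chr7:67952007-67952256, plus strand: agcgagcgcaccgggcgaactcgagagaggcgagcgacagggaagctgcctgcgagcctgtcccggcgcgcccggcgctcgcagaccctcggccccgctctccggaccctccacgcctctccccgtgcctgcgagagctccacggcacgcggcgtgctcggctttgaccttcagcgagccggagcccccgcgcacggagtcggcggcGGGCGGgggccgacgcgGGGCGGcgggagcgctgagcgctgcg
Igfbp2, chr1:72824230-72824479, plus strand: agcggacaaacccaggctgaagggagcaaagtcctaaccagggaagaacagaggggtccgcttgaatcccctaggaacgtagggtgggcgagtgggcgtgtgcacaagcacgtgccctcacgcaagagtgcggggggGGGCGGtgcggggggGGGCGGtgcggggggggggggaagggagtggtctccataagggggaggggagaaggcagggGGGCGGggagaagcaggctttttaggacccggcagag
Igfbp5, chr1:72874866-72875115, minus strand: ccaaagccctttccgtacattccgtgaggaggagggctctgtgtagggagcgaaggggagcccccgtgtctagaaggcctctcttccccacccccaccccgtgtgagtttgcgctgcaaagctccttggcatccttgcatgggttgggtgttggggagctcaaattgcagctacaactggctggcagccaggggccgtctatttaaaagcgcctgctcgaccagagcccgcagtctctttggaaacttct
Igfbp1, chr11:7197537-7197786, plus strand: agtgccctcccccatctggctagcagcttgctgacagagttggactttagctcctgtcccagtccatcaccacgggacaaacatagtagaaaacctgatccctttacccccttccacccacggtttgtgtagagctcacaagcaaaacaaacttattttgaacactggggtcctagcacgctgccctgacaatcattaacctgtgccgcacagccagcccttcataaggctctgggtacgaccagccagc
The Igf1r stretch held 42 CpG dinucleotides, more than 99.2% of the promoters, and 2 GC boxes. The Igfbp2 stretch held 14 CpGs and 3 GC boxes, the Igfbp5 stretch 10 CpGs and no GC box, and the Igfbp1 stretch 5 CpGs and no GC box, against a median of 6 CpGs over all promoters. Another listed start of Igfbp2, not shown, had 11 CpGs and no GC box upstream (chr1:72825137-72825386). The promoters of Igfbp3 (32 CpGs), Igfbp7 (26 CpGs, 4 GC boxes) and Igfbp4 (22 CpGs) were also CpG-rich, and those of Igfbp6 (7 CpGs) and Igf1 (5 CpGs) were not. A TATA box (TATAAA, either strand, in 13.0% of promoters) was present upstream of Igfbp4, at position -28 from its start, and of Igfbp6. A CCAAT box (CCAAT, either strand, in 34.5% of promoters) was present upstream of Igf1 and, in 2 copies, of Igfbp6. These matches describe letters only. Igfbp2 and Igfbp5 are neighbours on chromosome 1 with 5590 bases between them, and Igfbp1 and Igfbp3 are neighbours on chromosome 11 with 3539 bases between them.

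Each tissue comparison was tested on the deposited counts with edgeR's quasi-likelihood test across 24858 transcripts, with Benjamini-Hochberg adjustment over all of them and a false discovery rate of 5%. For each gene the transcript of highest mean count was used, and all 10 passed the filter on low counts. Between E9.25 mesoderm and E9.25 ysE, 6 of the 10 genes were called, 5 higher and 1 lower in mesoderm, where 30.6% of all transcripts were called (16.9% higher and 13.7% lower). The median log2 fold change of the 10 genes was 1.78, and that of all transcripts was 0.05. In cystic EBs against E9.25 ysE 4 genes were called higher and 1 lower (50.3% of all transcripts, 27.1% higher and 23.2% lower). Against E12.5 ysE 5 were higher and 1 lower in the EBs (40% of all, 21.1% and 18.8%), and in liver 4 were higher and 1 lower (46.3% of all, 23.7% and 22.6%). In cystic EBs against mesoderm 1 was higher and 3 were lower (28.9% of all, 13.9% and 15%), and against liver 1 was higher and 0 lower (45.4% of all, 24.6% and 20.9%). Between the ysE stages 1 was higher and 0 lower at E12.5 (8.47% of all, 3.9% and 4.57%), and between d15 and d10 EBs none was called (0% of all). With all libraries 60% of the 10 genes were called in mesoderm against E9.25 ysE (30.6% of all transcripts) and 60% in EBs against E12.5 ysE (40% of all). The share was near that of all transcripts in EBs against mesoderm (40%), liver against E12.5 ysE (50%), EBs against E9.25 ysE (50%) and between the ysE stages (10%). It was below that of all transcripts in EBs against liver (10%). With 10 genes 1 call moves the share by 10%, and no share was tested against that of all transcripts. Without any 1 library of E9.25 ysE or mesoderm, fewer of the 10 genes and fewer of all transcripts were called in mesoderm against E9.25 ysE. The same was seen in EBs against mesoderm without mesoderm A or B, and in EBs against E9.25 ysE without ysE A or B. Between the ysE stages the 1 call was lost without E9.25 ysE A or B. The comparisons share libraries and are not independent of each other.

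**Figure D1:**
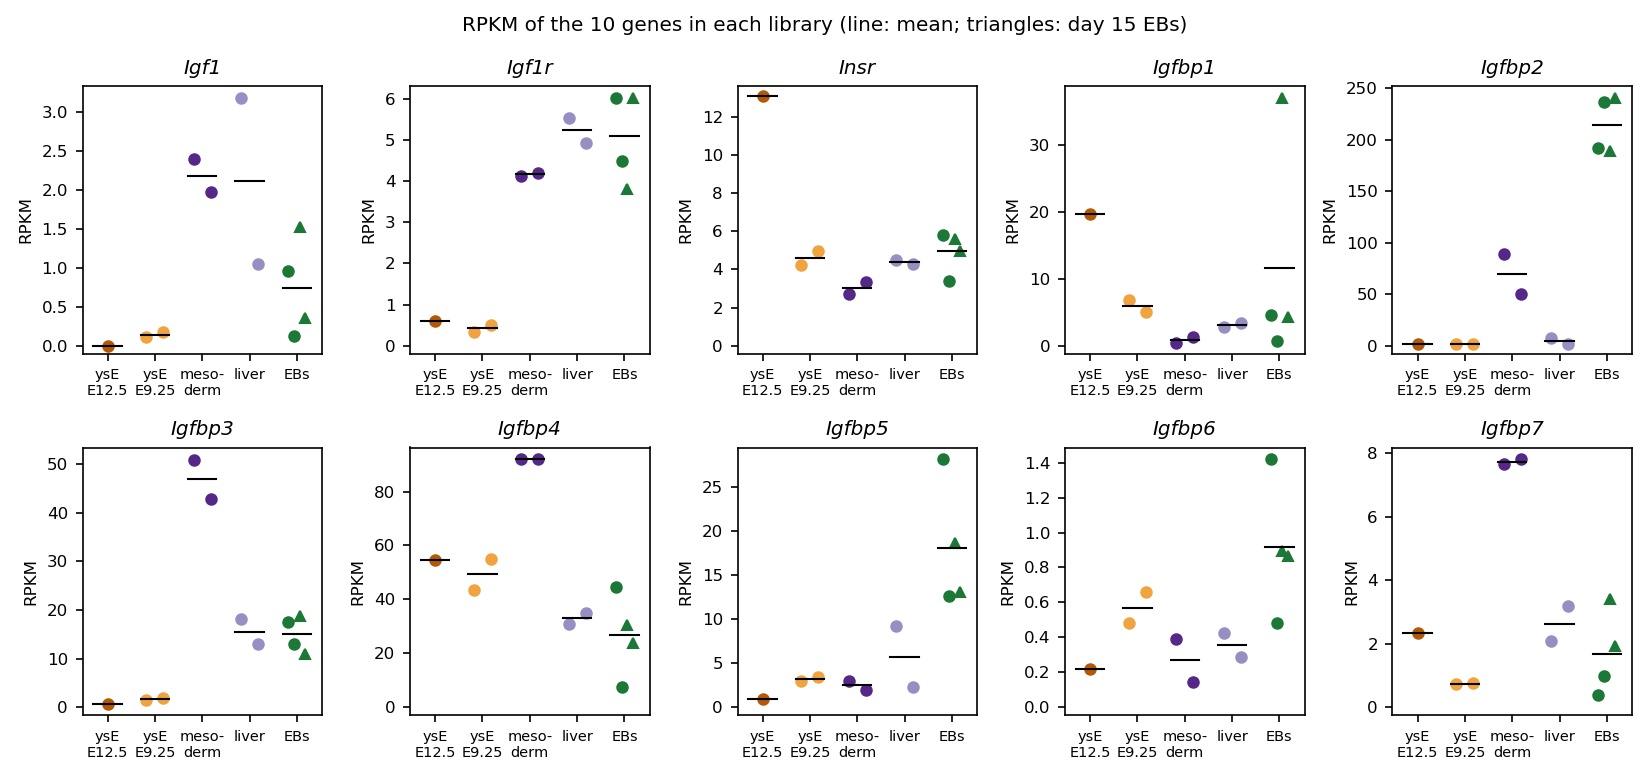
RPKM (vertical axis, a separate linear scale per gene) of Igf1, Igf1r, Insr and Igfbp1 to Igfbp7 in each of the 11 libraries, by tissue, with the mean as a line, circles for tissues and d10 EBs and triangles for d15 EBs. Igf1r was between 0.339 and 0.612 in the 3 ysE libraries and between 3.80 and 6.03 in the other 8, and Igfbp2 reached 189 to 240 in the EBs.

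**Figure D2:**
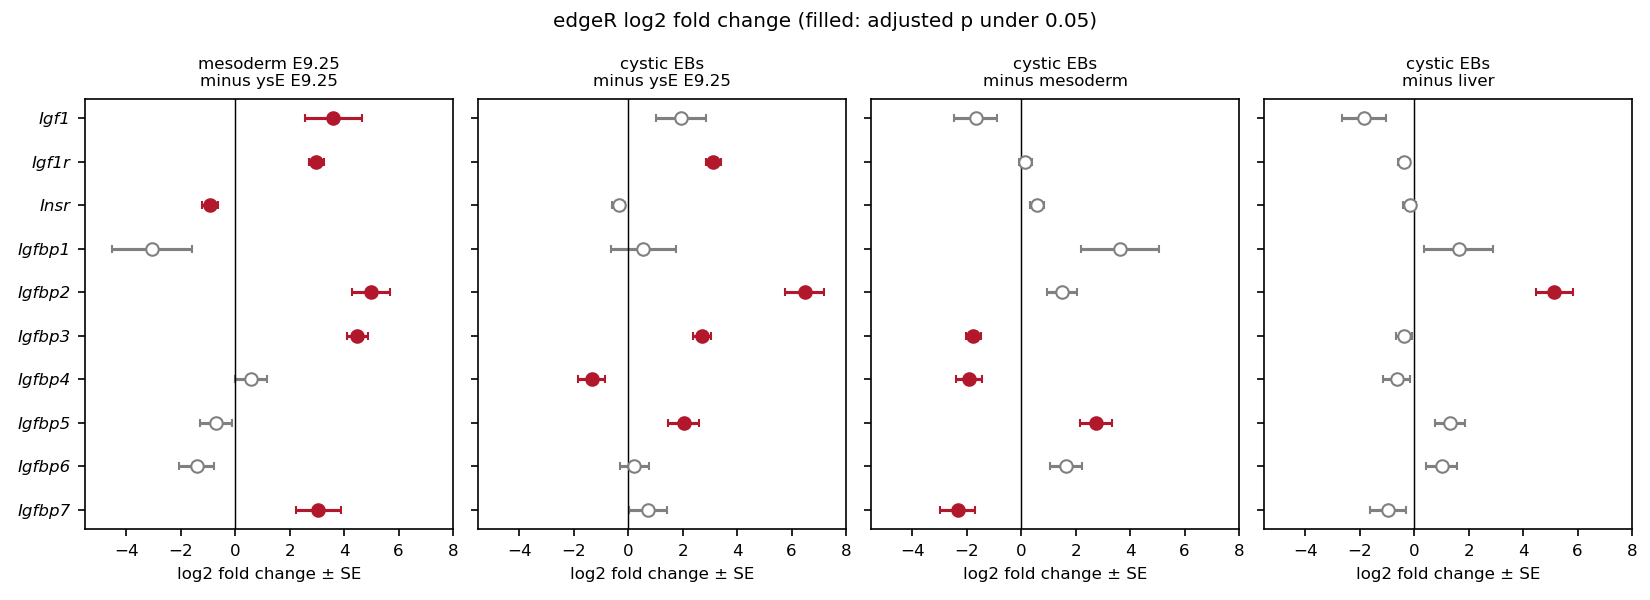
Log2 fold change from edgeR (horizontal axis, bars: standard error) of the 10 genes in 4 comparisons, filled where the adjusted p was under 0.05. Igfbp2 lay 5.15 to 6.48 above liver and E9.25 ysE in the EBs, and Igfbp3, Igfbp4 and Igfbp7 lay below mesoderm.

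Igf1 (chr10:87858265-87937047) encodes the ligand itself. Its RPKM was 0 in ysE at E12.5, 0.115 and 0.172 in ysE at E9.25, 2.40 and 1.97 in mesoderm, 3.18 and 1.05 in liver, 0.953 and 0.122 in d10 EBs (A9 and JN) and 1.52 and 0.351 in d15 EBs. Mesoderm and liver were high without overlap with ysE, and the A9 EBs stood above the JN EBs at both days. Mesoderm exceeded E9.25 ysE by 3.60 ± 1.06 (log2 fold change ± SE, n = 2 and 2; edgeR quasi-likelihood adjusted p = 0.0284), and the adjusted p lay between 0.0646 and 0.155 when any 1 of those 4 libraries (mesoderm A or B, ysE A or B) was left out. With 0 counts in ysE at E12.5, 3 counts were taken as the floor of that library, and on CPM (counts scaled to the library total) the gene was at least 282-fold higher in liver and at least 84.4-fold higher in the EBs (edgeR quasi-likelihood adjusted p = 0.00555 and 0.0141). Both folds rest on means of unequal libraries: the liver fold was 129.6 without liver A and 434 without liver B, and the EB fold was 54.3 without the d15 A9 library. In E9.25 ysE Igf1 was 14.8-fold above the floor on CPM, and the difference between the stages did not pass the test (edgeR quasi-likelihood adjusted p = 0.102), although DESeq2 called it (adjusted p = 0.00834), as did edgeR without the d10 JN library (adjusted p = 0.043) and with the ysE libraries alone (adjusted p = 4.16e-06). For the transcript with the highest mean RPKM, NM_184052, which had 8 and 6 counts in ysE at E9.25 and 1 in ysE at E12.5, the log2 fold change from E9.25 to E12.5 was -1.13 (edgeR adjusted p = 0.812). The EBs differed from E9.25 ysE by 1.92 ± 0.91 (log2 fold change ± SE, edgeR adjusted p = 0.105), which was past the test without the d10 JN library (2.28, adjusted p = 0.0244), with DESeq2 (adjusted p = 0.0241) and for the transcript with the highest mean RPKM (4.25, adjusted p = 0.0173), but was 0.34 among the dUTP libraries (adjusted p = 0.529). They differed from liver by -1.84 ± 0.79 and from mesoderm by -1.68 ± 0.79 (edgeR adjusted p = 0.0848 and 0.138), and without the d15 A9 library by -2.53 and -2.33 (adjusted p = 0.0195 and 0.0413). With the compared groups alone and a replicate block these differences were -2.11 and -2.26 (edgeR adjusted p = 0.00966 and 0.035), and DESeq2 called that from liver (adjusted p = 0.0388) but not that from mesoderm (adjusted p = 0.104). In this and the other block fits of EBs against a tissue, the letters mark ES clones in the EBs and pooled litters in the tissue. Such a block pairs no samples, so that the calls it gained add no support. The difference from liver was -0.80 without liver A (edgeR adjusted p = 0.563), and that from mesoderm was -3.34 among the dUTP libraries (adjusted p = 0.00175) but -0.15 for the transcript with the highest mean RPKM (adjusted p = 0.917). Igf1 was the least certain of the genes at the level of transcripts, since its 5 RefSeq rows overlap and share reads. The transcript NM_184052, with the highest mean RPKM, had a single count in ysE at E12.5, and for it the difference of the EBs from that library was 5.38 (log2) with an edgeR adjusted p of 0.0684.

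Igf1r (chr7:67952257-68233668), the receptor for both growth factors, separated ysE from all other samples. Its RPKM was 0.612 in ysE at E12.5 and 0.339 and 0.508 in ysE at E9.25. It was 4.14 and 4.19 in mesoderm, 5.54 and 4.93 in liver, and 6.03, 4.50, 3.80 and 6.01 in the EBs (d10 A9, d10 JN, d15 A9, d15 JN). The 3 ysE libraries did not overlap with the other 8, whose ranges overlapped or lay close to each other. Mesoderm exceeded E9.25 ysE by 2.98 ± 0.28 (log2 fold change ± SE; edgeR quasi-likelihood adjusted p = 0.00021), the EBs exceeded it by 3.13 ± 0.27 (adjusted p = 4.47e-05), and liver exceeded E12.5 ysE by 3.06 ± 0.38 (adjusted p = 0.000279). Against the JN EBs alone, made with the same dUTP protocol as E9.25 ysE, the difference was 3.27 ± 0.23 (edgeR adjusted p = 5.01e-05). In this and the other single-protocol fits the EB arm was 1 ES clone at 2 days, so that these p-values and errors hold no spread between clones. The EBs differed from liver by -0.38 ± 0.23 and from mesoderm by 0.15 ± 0.23, neither past the test (edgeR adjusted p = 0.189 and 0.646).

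Insr (chr8:3150922-3279649), the insulin receptor gene, was highest in ysE at E12.5. Its RPKM was 13.1 in ysE at E12.5, 4.24 and 4.96 in ysE at E9.25, 2.69 and 3.34 in mesoderm, 4.50 and 4.30 in liver, and 5.81, 3.37, 5.597 and 4.99 in the EBs in the order above. E12.5 ysE was above every other library and the mesoderm libraries were the lowest, while E9.25 ysE, liver and EBs overlapped. E12.5 ysE exceeded E9.25 ysE by 1.43 ± 0.33 (log2 fold change ± SE, n = 1 and 2; edgeR quasi-likelihood adjusted p = 0.0294), the only one of the 10 genes called between these stages, where 46.0% of all called transcripts were higher at E12.5 (58.6% with the size factors of DESeq2). Leaving out E9.25 ysE replicate A, its replicate B or d15 EB replicate B ended that call (adjusted p = 0.143, 0.0993 and 0.0501). Liver and the EBs lay below E12.5 ysE by -1.61 ± 0.33 and -1.77 ± 0.28 (edgeR adjusted p = 0.0034 and 0.0011). Mesoderm lay below E9.25 ysE by -0.93 ± 0.28 (edgeR adjusted p = 0.0314), a call lost without any 1 of the 4 libraries compared (adjusted p 0.066 to 0.208).

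Set against each other on RPKM, which is per transcript length, Insr exceeded Igf1r between 9.75 and 21.4 times in the 3 ysE libraries. The ratio was 0.75 to 1.47 in the EBs, 0.812 and 0.871 in liver and 0.649 and 0.797 in mesoderm. The ysE libraries therefore held mostly the insulin receptor transcript of the pair, and the other tissues held both at similar levels.

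**Figure D3:**
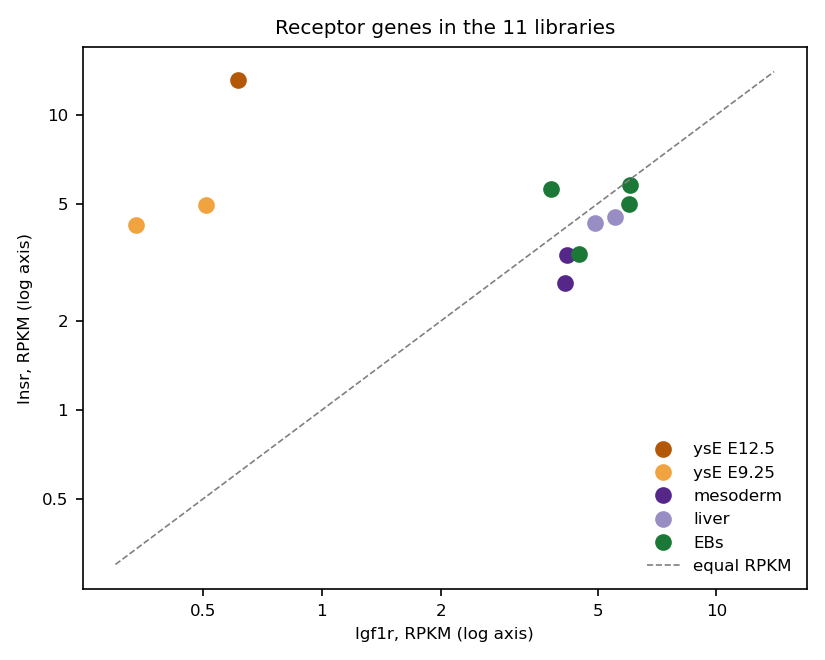
Insr against Igf1r, both as RPKM on log axes, with 1 point for each of the 11 libraries coloured by tissue and a dashed line of equal RPKM. The 3 ysE points lie far above the line, with Insr 9.75 to 21.4 times Igf1r, and the other 8 points lie around it.

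Igfbp2 (chr1:72824480-72852474), a binding protein known from fetal tissues and body fluids, had the widest span of RPKM of the 10 genes. Its RPKM was 192, 237, 189 and 240 in the EBs (d10 A9, d10 JN, d15 A9, d15 JN), 89.5 and 50.5 in mesoderm, 7.88 and 1.60 in liver, 1.41 and 2.11 in ysE at E9.25 and 1.52 in ysE at E12.5. The EBs were above mesoderm, mesoderm was above liver, and liver overlapped with ysE. Within a library Igfbp2 ranked above 99.3 to 99.6% of genes in the EBs and above 58.6 to 61.9% in the ysE libraries. The EBs exceeded E9.25 ysE by 6.48 ± 0.72 (log2 fold change ± SE; edgeR quasi-likelihood adjusted p = 0.00013), E12.5 ysE by 6.77 ± 1.03 (adjusted p = 0.000891) and liver by 5.15 ± 0.67 (adjusted p = 0.000359), the only call of the 10 genes against liver. DESeq2 and the replicate block each also called Igf1 and Igfbp5 against liver, and edgeR without the d15 A9 library called Igf1 and Igfbp7 (-1.62, adjusted p = 0.0303). The difference from liver was 6.75 without liver A and 4.41 without liver B, past the test in both cases. Within 1 protocol these differences were 6.72 ± 0.35 (JN EBs against E9.25 ysE, edgeR adjusted p = 2.74e-05) and 5.01 ± 0.79 (A9 EBs against liver, edgeR adjusted p = 0.00627). Mesoderm exceeded E9.25 ysE by 4.98 ± 0.69 (edgeR adjusted p = 0.0008). The EBs exceeded mesoderm by 1.49 ± 0.54, which did not pass the test (edgeR adjusted p = 0.0653) but did among the dUTP libraries (1.66 ± 0.28, adjusted p = 0.00368), without either liver library (adjusted p = 0.00852 and 0.00853), with these groups alone (adjusted p = 0.0153, and 0.0147 with a replicate block) and with DESeq2 (adjusted p = 0.0128).

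Igfbp3 (chr11:7206086-7215498), the main carrier of the growth factors in adult blood, was highest in mesoderm and lowest in ysE. Its RPKM was 50.9 and 42.8 in mesoderm, 18.0 and 13.0 in liver, 17.4, 12.9, 18.8 and 10.98 in the EBs in the same order, 1.39 and 1.97 in ysE at E9.25 and 0.703 in ysE at E12.5. Liver and EBs overlapped, and the other groups were separate. It was called in 5 of the 8 comparisons, more than any other of the 10 genes. Mesoderm exceeded E9.25 ysE by 4.48 ± 0.38 (log2 fold change ± SE; edgeR quasi-likelihood adjusted p = 0.000154), the EBs exceeded E9.25 ysE by 2.72 ± 0.33 (adjusted p = 0.000195) and E12.5 ysE by 4.06 ± 0.50 (adjusted p = 0.000293), and liver exceeded E12.5 ysE by 4.43 ± 0.52 (adjusted p = 0.000211). The EBs lay below mesoderm by -1.76 ± 0.27 (edgeR adjusted p = 0.00193), and by -2.08 ± 0.20 among the dUTP libraries.

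Igfbp4 (chr11:99040005-99052655) encodes a binding protein best known as an inhibitor of the growth factors that is cleaved by the protease Pappa. Its RPKM was 92.0 and 92.1 in mesoderm, 54.5 in ysE at E12.5, 43.5 and 55.0 in ysE at E9.25, 31.1 and 35.1 in liver, and 44.7, 7.64, 30.5 and 23.7 in the EBs. It was high in all tissues, with mesoderm above all other libraries in RPKM, both ysE stages overlapping and the d10 JN EBs lowest. Mesoderm against E9.25 ysE was not called (log2 fold change 0.58, edgeR quasi-likelihood adjusted p = 0.501), and was called in 2 of 17 alternatives. The EBs lay below mesoderm by -1.92 ± 0.49 (log2 fold change ± SE; edgeR quasi-likelihood adjusted p = 0.018), a call lost without mesoderm A or B (adjusted p = 0.0821 and 0.0923) and with these groups alone (adjusted p = 0.0526). They lay below E9.25 ysE by -1.34 ± 0.49 (edgeR adjusted p = 0.0463), a call lost without either library of E9.25 ysE, mesoderm, liver or d15 EBs (adjusted p 0.0576 to 0.215), with the size factors of DESeq2 (adjusted p = 0.0656) and with these groups alone (adjusted p = 0.0911). Among the dUTP libraries both differences were larger, at -2.70 ± 0.45 and -2.03 ± 0.44 (edgeR adjusted p = 0.00342 and 0.00563).

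Igfbp5 (chr1:72858065-72874865), whose protein binds the growth factors and matrix, was highest in the EBs. Its RPKM was 28.2, 12.7, 18.7 and 13.1 in the EBs, 9.23 and 2.25 in liver, 3.03 and 3.46 in ysE at E9.25, 2.98 and 1.99 in mesoderm and 0.883 in ysE at E12.5. The EBs did not overlap with any tissue, and liver, E9.25 ysE and mesoderm did not differ beyond the spread between the liver libraries. The EBs exceeded mesoderm by 2.75 ± 0.59 (log2 fold change ± SE; edgeR quasi-likelihood adjusted p = 0.0087), E9.25 ysE by 2.04 ± 0.57 (adjusted p = 0.0148), and also E12.5 ysE (adjusted p = 0.00644). The call against mesoderm was lost without mesoderm A or B (adjusted p = 0.0572 and 0.0906) and that against E9.25 ysE without its replicate A or B (adjusted p = 0.092 and 0.0789). Liver exceeded E12.5 ysE by 2.68 ± 0.84 (edgeR adjusted p = 0.0267), by 1.29 without liver A (adjusted p = 0.119) and by 3.37 without liver B (adjusted p = 0.00491). The EBs differed from liver by 1.32 ± 0.55 (edgeR adjusted p = 0.0743), by 2.71 without liver A (adjusted p = 0.00821), by 1.55 with these groups alone and a replicate block (adjusted p = 0.0105), by 1.26 with DESeq2 (adjusted p = 0.0455) and by 0.63 without liver B (adjusted p = 0.34). Liver A, which held more Igf1, Igfbp2 and Igfbp5 than liver B, also held more of the 3 smooth muscle markers (Acta2, Tagln, Myh11; summed RPKM 18.9 against 7.10) and less of the 3 hepatoblast markers (374 against 796), and the part of these markers was not tested.

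Igfbp1 (chr11:7197787-7202546), a binding protein secreted by liver and decidua and regulated by insulin, varied most within the EBs. Its RPKM was 19.7 in ysE at E12.5, 6.89 and 5.12 in ysE at E9.25, 2.73 and 3.41 in liver, 0.447 and 1.32 in mesoderm, and 4.64, 0.686, 37.0 and 4.29 in the EBs. Among the tissues ysE was above liver and liver above mesoderm, without overlap, and the d15 A9 EBs stood above all of them. The d15 A9 library also had the highest summed endoderm markers of the EBs (1271 RPKM, against 143 to 487 in the other 3) and the highest mesenchyme markers (242, against 31.0 to 135). The 4 yolk sac endoderm markers (Amn, Cubn, Slc22a3, Tfpi2) summed to 22.1 in that library, against 15.2 to 42.0 in the other 3. The part of these lists was not tested. edgeR's quasi-likelihood test called Igfbp1 in no comparison of all groups, and it lay at -3.06 ± 1.46 in mesoderm against E9.25 ysE (log2 fold change ± SE; adjusted p = 0.144, and 0.00106 with these groups alone). The EBs differed from mesoderm by 3.62 ± 1.42 (edgeR adjusted p = 0.0836), which DESeq2 called (adjusted p = 0.0143), as did edgeR without the d10 JN library (adjusted p = 0.0261), and which was 1.71 without the d15 A9 library (adjusted p = 0.116). Without the d15 A9 library the difference of mesoderm from E9.25 ysE was -3.05 (edgeR adjusted p = 0.0196), that of the EBs from E12.5 ysE was -3.02 (adjusted p = 0.0149) and that of liver from E12.5 ysE was -2.71 (adjusted p = 0.0329). The difference of the EBs from E9.25 ysE was 0.55 with that library and -1.34 without it, and past the test in neither case.

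Igfbp7 (chr5:77349240-77408045), a more distant relative with low affinity for the growth factors that is known from vessels, was highest in mesoderm. Its RPKM was 7.67 and 7.81 in mesoderm, 2.10 and 3.18 in liver, 2.33 in ysE at E12.5, 0.725 and 0.768 in ysE at E9.25, and 0.391, 0.974, 3.41 and 1.92 in the EBs. Mesoderm did not overlap with any other group, while the EBs spanned the range of the others. Mesoderm exceeded E9.25 ysE by 3.05 ± 0.83 (log2 fold change ± SE; edgeR quasi-likelihood adjusted p = 0.0205) and the EBs by 2.32, given as -2.32 ± 0.64 for EBs against mesoderm (adjusted p = 0.0247). Both calls were lost without any 1 library of mesoderm, and the first also without any 1 library of E9.25 ysE (adjusted p 0.0635 to 0.114 for the first, 0.0992 and 0.113 for the second). The second was also lost with these groups alone (adjusted p = 0.0615, and 0.0513 with a replicate block), and was -2.94 without the d15 A9 library (adjusted p = 0.00438). Among the dUTP libraries the EBs lay below mesoderm by -2.55 ± 0.33 (edgeR adjusted p = 0.00127).

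Igfbp6 (chr15:102144186-102149512), whose protein prefers Igf2 as its ligand, was low in all 11 libraries. Its RPKM was 1.42, 0.485, 0.895 and 0.863 in the EBs, 0.481 and 0.658 in ysE at E9.25, 0.427 and 0.285 in liver, 0.392 and 0.145 in mesoderm and 0.216 in ysE at E12.5. The EBs overlapped with E9.25 ysE, and mesoderm with liver and E12.5 ysE, while the other pairs of groups did not overlap. edgeR's quasi-likelihood test called it in none of the 8 comparisons. Against mesoderm the EBs differed by 1.65 ± 0.59 (log2 fold change ± SE, edgeR adjusted p = 0.0619), which DESeq2 called (adjusted p = 0.0108), as did edgeR without the d10 JN library (adjusted p = 0.0358) and with the EBs and mesoderm alone and a replicate block (adjusted p = 0.0414).

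Added together, the 7 binding protein genes reached 289 ± 11.6 RPKM in the EBs (mean ± SD, n = 4 libraries of 2 clones), 220 ± 33.3 in mesoderm (n = 2), 65.1 ± 8.95 in liver (n = 2), 63.2 ± 8.24 in ysE at E9.25 (n = 2) and 79.9 in ysE at E12.5 (n = 1). RPKM does not include the factors by which edgeR scales libraries, which were 0.766 to 0.816 in ysE and 1.12 to 1.21 in the EBs. With these factors the EBs would stand less far above ysE than on RPKM. Igfbp2 made up 66.5 and 63.3% of this sum in the A9 EBs (d10 and d15), 87.0 and 81.4% in the JN EBs and 2.76 ± 0.43% in ysE at E9.25. Igfbp4 made up 77.7 ± 2.74% in ysE at E9.25, 68.2% in ysE at E12.5 and 51.6 ± 11.5% in liver, but 15.5 and 10.2% in the A9 and 2.81 and 8.03% in the JN EBs. At both days Igfbp1, Igfbp3, Igfbp4, Igfbp5 and Igfbp6 were higher in RPKM in the A9 than in the JN EBs, and Igfbp2 was lower. Mesoderm was shared between Igfbp4 (42.3 ± 6.44%), Igfbp2 (31.2 ± 7.81%) and Igfbp3 (21.3 ± 0.65%). Igfbp3 was the next largest share in liver (23.7 ± 2.21%), and Igfbp1 in both ysE stages (24.7% at E12.5 and 9.71 ± 3.25% at E9.25).

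**Figure D4:**
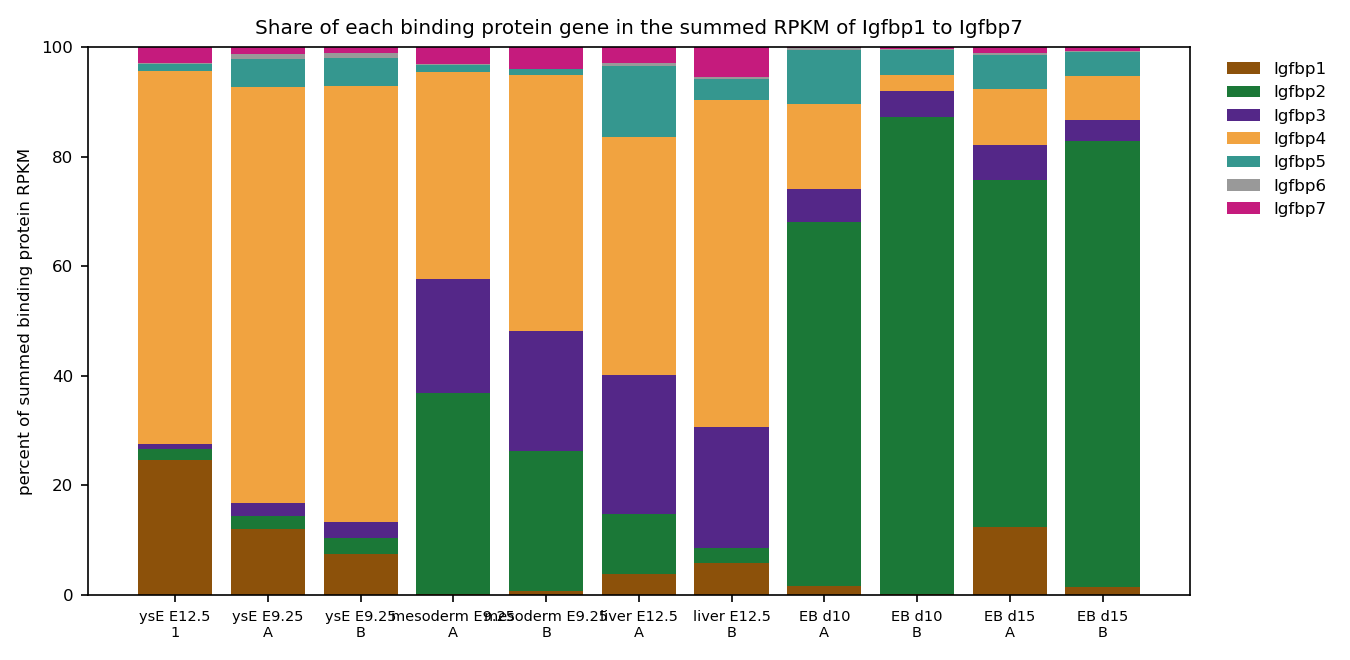
Share (percent, vertical axis) of each of Igfbp1 to Igfbp7 in their summed RPKM, with 1 stacked bar for each of the 11 libraries. Igfbp2 made up 63.3 to 87.0% of the EB bars, and Igfbp4 made up 68.2 to 79.6% of the ysE bars.

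Between d15 and d10 EBs none of the 10 genes was called by edgeR's quasi-likelihood test. At an unadjusted p under 0.05 there were 2 of the 10 genes and 1358 of the 24858 transcripts, and DESeq2 called 145 transcripts, Igfbp7 among them. Igfbp1 was 7.98 times higher at d15 in A9 and 6.25 times higher in JN (log2 fold change 3.03 ± 1.15, edgeR adjusted p = 0.901). Igfbp7 was 8.73 and 1.97 times higher (log2 fold change 1.95 ± 0.52, edgeR adjusted p = 0.875, DESeq2 adjusted p = 0.0405), and Igf1 was 1.60 and 2.88 times higher. Igfbp2 stood at 0.984 and 1.015 of its d10 level. In clones A9 and JN in turn, summed endoderm markers went from 456 to 1271 and from 143 to 487 RPKM, and mesenchyme markers from 94.7 to 242 and from 31.0 to 135. The 4 yolk sac endoderm markers went from 42.0 to 22.1 in A9 and from 15.2 to 23.3 in JN. The part of these lists was not tested.

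The rest of the pathway was taken as a list of 33 genes, 32 of which were tested. Between mesoderm and E9.25 ysE 4 of the 32 were higher and 3 lower, with a median log2 fold change of -0.07 against 0.05 for all transcripts. These 7 were 21.9% of the list, against 30.6% of all transcripts. The EBs had 11 higher and 7 lower against E9.25 ysE (56.2%, against 50.3% of all), 10 and 4 against E12.5 ysE (43.8%, against 40%), 10 and 2 against liver (37.5%, against 45.4%), and 7 and 2 against mesoderm (28.1%, against 28.9%). Liver had 8 higher and 5 lower against E12.5 ysE (40.6%, against 46.3%), which itself had 0 higher and 5 lower against E9.25 ysE (15.6%, against 8.47%). The counts between d15 and d10 EBs were 0 in both directions.

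Among the ligands, Igf2 stood far above Igf1, at 72.6 to 322 RPKM in the 11 libraries, and was called in none of the 8 comparisons. Ins2 did not exceed 0.222 RPKM and was lower in the EBs than in ysE at E9.25 (log2 fold change -3.99 ± 1.18; edgeR quasi-likelihood adjusted p = 0.0192), and Ins1 was at 0 throughout. Igf2r, the clearance receptor for Igf2, was between 35.4 and 150 RPKM and was not called, although reads from its antisense partner Airn cannot be told apart from its own in a non-stranded library. Igfals, which encodes the subunit that completes the circulating complex of ligand and Igfbp3, was at 15.5 RPKM in ysE at E12.5 and 5.04 and 6.04 in ysE at E9.25, against 0.405 to 0.745 in the other 8 libraries. It was the most strongly lower gene of the list in mesoderm against E9.25 ysE (log2 fold change -3.55 ± 0.41; edgeR quasi-likelihood adjusted p = 0.000383), in the EBs against E12.5 ysE (-5.30 ± 0.36, adjusted p = 2.12e-05) and in liver against E12.5 ysE (-4.59 ± 0.46, adjusted p = 0.000105).

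Among the proteases that cleave binding proteins and their inhibitors, Stc1, a secreted inhibitor of Pappa, was the most strongly higher gene of the list in mesoderm against E9.25 ysE (log2 fold change 4.73 ± 0.69; edgeR quasi-likelihood adjusted p = 0.00105). Pappa was listed at 0 RPKM in ysE at E12.5 and lay at 0.022 and 0.024 in ysE at E9.25, 0.067 and 0.074 in mesoderm, and its highest levels were 0.438 and 0.144 in liver and 0.648 to 1.397 in the EBs. It was called lower in E12.5 than in ysE at E9.25 (edgeR adjusted p = 0.0409) and higher in liver than in ysE at E12.5 (adjusted p = 0.000588). Pappa2, a related protease, reached 2.06 RPKM in the d15 A9 EBs and 1.88 and 0.841 in liver, and was at or below 0.116 in the other 8 libraries.

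Among the adaptors, Irs4 had the largest fitted fold change among the higher genes of the list in the EBs against E9.25 ysE, liver and mesoderm. Against E12.5 ysE, where Irs4, Stc1, Pappa, Pappa2 and Igfbpl1 were all listed at 0, fitted folds do not rank these genes. Its RPKM was 3.26 and 2.92 at d10 and 0.562 and 1.38 at d15 (A9 and JN), and 0.014 or less in the 7 tissue libraries. Liver B, mesoderm B and E12.5 ysE were at 0. Against liver and mesoderm edgeR's quasi-likelihood test gave adjusted p = 0.00102 and 0.00255, and against E9.25 and E12.5 ysE it gave 0.00108 and 0.00723. Irs1, an adaptor that Igf1r and Insr share, was singled out after its values were seen. Irs1 was at 0.086 RPKM in ysE at E12.5 and 0.244 and 0.291 in ysE at E9.25, against 3.35 to 6.52 in the other 8 libraries, and exceeded E9.25 ysE by 4.06 ± 0.32 in mesoderm (log2 fold change ± SE; edgeR adjusted p = 0.000153). Like Igf1r, it separated ysE from all other libraries. Akt2, a kinase of the PI3 kinase arm, was the most strongly lower gene of the list in the EBs against liver (-0.92 ± 0.18, edgeR adjusted p = 0.00282) and against mesoderm (-0.99 ± 0.18, adjusted p = 0.0037).

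Across the 11 libraries the levels of other genes were ranked by Pearson's r of log2(RPKM + 1) with each of the 10 genes, among 11952 genes with a mean RPKM of at least 1. The r-values describe points that share tissue, protocol and depth. The genes most like Igfbp2 were Hey1, Tle3 and Trove2 (r = 0.992, 0.99 and 0.986), those most like Igf1r were Ptpn12, Odz3 and Mrc2 (0.984, 0.983 and 0.98), and those most like Igfbp3 were Ets1, Rapgef5 and Plce1 (0.98, 0.976 and 0.975). Igfbp5 was most like Enah, Fzd7 and Zfp462 (r = 0.98, 0.953 and 0.951), Igf1 most like Sparcl1, Ddr2 and Npr3 (0.964, 0.949 and 0.948) and Insr most like Cry2, Mfsd6 and Phldb3 (0.96, 0.954 and 0.95). Igfbp1 was most like E130311K13Rik, Elf1 and Lmo7 (r = 0.954, 0.938 and 0.924) and Igfbp4 most like Rgl1, Man1a and Pygb (0.937, 0.922 and 0.918). Igfbp6 was most like Zbtb16 and Twist1 (r = 0.934 and 0.902) and Igfbp7 most like E130203B14Rik, Sh3tc2 and Col1a2 (0.943, 0.937 and 0.908). With a pseudocount of 0.1 in place of 1, 17 of the 30 genes, 3 for each member, were found again, among them all 3 of Igfbp1 and of Igfbp4 and none of Igfbp3. Among the 10 genes themselves, r was highest for Igfbp5 with Igfbp6 (0.854), Igf1r with Igfbp3 (0.847) and Igf1 with Igfbp3 (0.812), and lowest for Insr with Igfbp3 (-0.655).

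H3K4me3, a mark of active promoters, was available as peaks from whole E12.5 VYS, which holds both endoderm and mesoderm. Of the 9 genes with a listed start, 8 had a peak within 1 kb of it, as did 45.4% of 27025 genes. The exception was Igfbp6, 6010 bases from the nearest peak. The score that MACS gives each peak (larger for a smaller p-value) was 3100 for Igf1r and Igfbp4, over peaks of 5247 and 4455 bases. That value was shared by 5262 peaks, with 267 above it, so that it gives no finer rank. It was 2736 for Igfbp1, 2468 for Igfbp3, 2349 for Igf1, 1187 for Igfbp5, 557 for Igfbp7 and 125 for Igfbp2, the last above 22.9% of the 22343 peaks. The promoters of Igf1r and Igf1 thus carried a peak in the whole yolk sac, of which the ysE layer held little of either transcript, and which layer the mark came from was not tested. The peak of Igfbp2 covered 937 bases beginning 53 bases upstream of the start shown above, and ended 24 bases before the other listed start.

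CpG methylation was summed over reads within 1 kb of each start, with at least 5 read calls required. The Igf1r promoter was low in all 6 libraries, at 8.33% and 0% in ysE (12 and 14 calls), 0% and 5.71% in liver (18 and 35 calls) and 12.2% and 11.8% in the EBs (41 and 17 calls). The median promoter of the genome was at 42.9% and 40% in ysE, 75% and 68.4% in the EBs and 59.4% and 62.5% in liver. The Igfbp5 promoter was also low, from 0% to 26.7% in the 6 libraries, with 5 to 15 calls. The Igfbp1 promoter was methylated in liver (9 of 11 and 7 of 9 calls) and in the EBs (9 of 9 and 7 of 9 calls). In ysE it had 0 of 3 and 0 of 1 calls, under the minimum and compatible with up to 70.8% and 97.5% by exact 95% binomial intervals. The Igfbp6 promoter was at 78.7% and 67.6% in ysE and 81.8% and 60% in the EBs, and that of Igfbp7 was at 80% and 67.6% in ysE, 65.2% and 84.6% in the EBs and 33.3% and 40.7% in liver. With 2 libraries a tissue, a permutation test between a pair of tissues cannot give a p below 1 in 3. No test was made, and most promoters were too thinly covered to tell the tissues apart.

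Gene bodies were better covered. Over Igf1r, 73.9% of 2607 calls (95% exact binomial interval 72.1 to 75.6%) and 71.4% of 1572 calls (69.1 to 73.7%) were methylated in ysE, against 85.4% and 86.5% in liver and 87.2% and 87.5% in the EBs. Both ysE values lay below all others, as did the medians over all genes (71.9% and 66.7% in ysE, 79.0% and 81.0% in liver, 86.1% and 81.7% in the EBs). Over Insr the values were 81.8% and 77.7% in ysE, 93.1% and 80.6% in the EBs and 82.3% and 84.7% in liver, so that ysE overlapped with the EBs. The interval of the higher ysE value (CxF, 78.9 to 84.4%) also held the liver value of 82.3%. Over Igfbp3 they were 52.5% and 51.1% in ysE (40 and 45 calls), 64.0% and 85.3% in liver and 75.9% and 73.5% in the EBs. Intervals cover counting error only, since reads without molecular identifiers are not independent molecules.

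**Figure D5:**
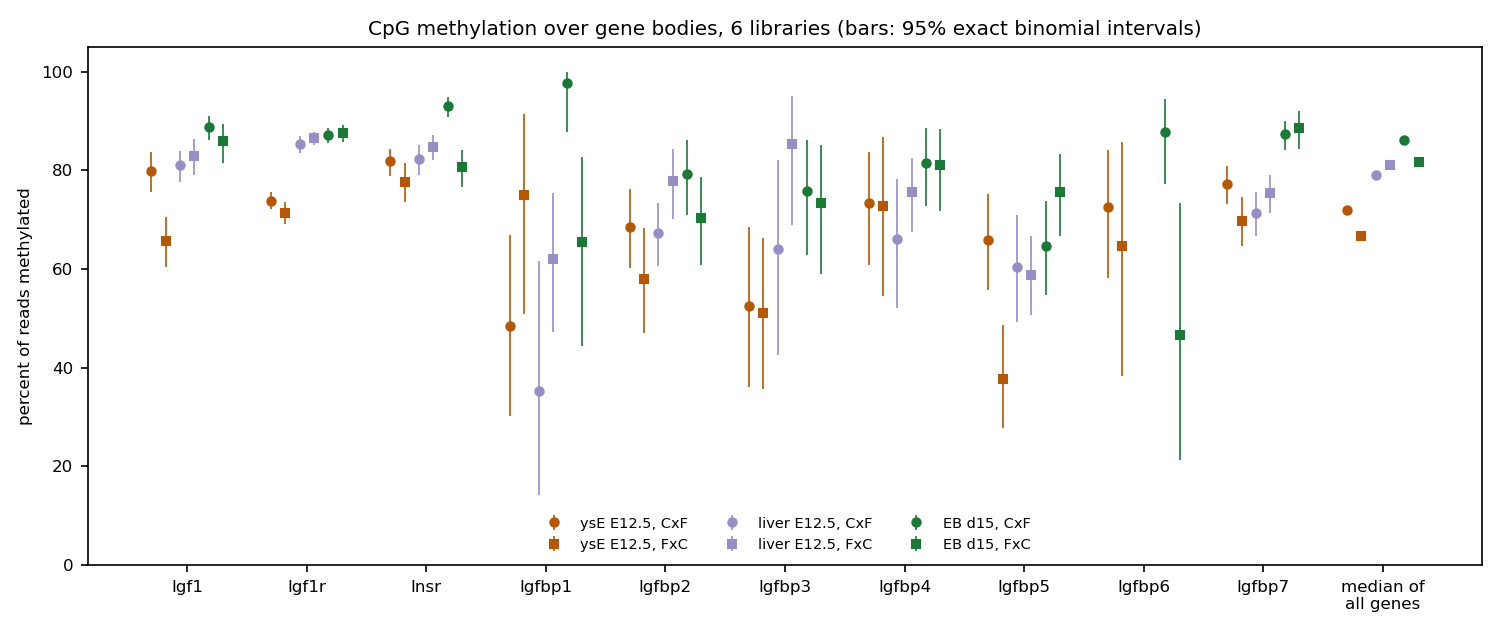
Percent of CpG read calls methylated (vertical axis) over the gene bodies of the 10 genes in 6 bisulfite libraries, with 95% exact binomial intervals, and the median of all genes at the right. For Igf1r the ysE libraries stood at 73.9% and 71.4%, below 85.4 to 87.5% in liver and EBs, and Igfbp6 has no liver value.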

How the data were processed

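RNA-seq reads had been aligned by the authors to mm10 with GSNAP and counted over RefSeq transcripts, and the deposited tables hold raw counts and RPKM for 11 libraries. The authors' bisulfite files give, per CpG, a percent methylation deposited with read counts, and the deposited H3K4me3 peaks carry a MACS (1.4.2) score. Whether counting used strand is not given in the sources used here. Exon-level and repeat files were not used. Replicate letters followed the labels, and the 10 genes and all lists were chosen with earlier results of these data known.

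Counts were filtered (filterByExpr), scaled by TMM and tested with edgeR 4.0.16 quasi-likelihood tests in R 4.3.3, with no covariate, over 5 tissue groups (6 for d15 against d10), with Benjamini-Hochberg adjustment over 24858 transcripts. The coefficient of biological variation was 0.399 (0.398 with 6 groups). The standard error of each edgeR fold change was derived from the test, as the absolute log2 fold change over the square root of the quasi-likelihood F. The lone library of E12.5 ysE was taken to have the same variability as the replicated groups. p-values measure the spread between pooled litters and between EB libraries, where 2 clones at 2 days entered as 4 replicates. In single-protocol fits the EB arm was 1 clone. RPKM served for levels only and was not scaled by TMM. Levels of all 10 genes were given for every library, and fold changes of each for only some of the comparisons. Of a list of 33 pathway genes the rule was to name the called gene with the largest change in each direction, with Igf2, Igf2r, Ins2 and Pappa2. Irs1 and Ins1 were named outside this rule, after their values were seen. Some genes that the rules select are not reported here. Promoter and gene body methylation was summed from read counts with exact binomial intervals. The test was also run on simulated counts of 24858 transcripts, of which 200 were changed. It recovered 0% (mesoderm against E9.25 ysE) to 5.97% (EBs against E9.25 ysE) of changes of 1 log2 unit. Of changes of 2 it recovered 7.46% (liver against E12.5 ysE) to 53.7% (EBs against E9.25 ysE). Of changes of 3 it recovered 43.9% (liver against E12.5 ysE) to 92.4% (EBs against liver). In the tissue comparisons of the real data 8.47% to 50.3% of transcripts were called. With so few changed transcripts the adjustment was stricter in the simulation, and these recovered shares do not carry over to the real data. Alternatives were DESeq2 1.42.0, its size factors in edgeR, no filter, another transcript, each library left out, the compared groups alone, a replicate block and single protocols. Deviations from the group means correlated at 0.638 between d10 and d15 EBs, which share clones. Between mesoderm and E9.25 ysE, whose letters the labels do not tie to a shared litter, the correlation was -0.0859. Only for the EB days were the letters taken as a pairing, which entered the block alternative and not the main test.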

Additional observations from a re-analysis of the deposited data

Results flagged for a closer look

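Igfbp1 in the d15 A9 EBs, at 37.0 RPKM, stood apart from the other 3 EB libraries (0.686 to 4.64) by more than Dixon's 95% limit for 4 values, but not on a log2 scale. It was the only such value among the 10 genes, each tested at both ends on both scales, and chance gives about 1 in 20 groups. The same library held the most Afp of the EBs (688 RPKM against 25.8 to 212), but not the most of the summed yolk sac endoderm markers (22.1 RPKM, against 42.0 in the d10 A9 EBs).

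The change from d10 to d15 ran in opposite directions in the ES clones, by at least 0.5 in each, for Igfbp4, at -0.55 in A9 and 1.63 in JN (log2 RPKM), and for Igfbp6, at -0.67 in A9 and 0.83 in JN. Opposite changes of under 0.5 in 1 or both clones were seen for Igf1r (-0.66 in A9, 0.42 in JN), Insr, Igfbp2, Igfbp3 and Igfbp5. With 1 library per clone and day, these differences between clones were not tested, and clone and library protocol cannot be told apart.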

How the results depend on the processing

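Of 1330 values of the 10 genes recomputed under alternatives, 1219 kept direction and side of the threshold, 38 lost a call, 48 gained one and 25 changed sign, all 25 among values past the test in neither setting. With each library left out in turn, the number of the 10 genes called changed in every comparison except that of the EB days. The number of all transcripts called changed in every comparison. The falls for the 10 genes in mesoderm against E9.25 ysE, EBs against E9.25 ysE and EBs against mesoderm came with fewer calls over all transcripts. DESeq2 called 3 of 10 for EBs against liver (12469 of 25174 transcripts), 7 for EBs against mesoderm (9119 of 24620), 2 between ysE stages (3937 of 22406) and 1 between EB days (145 of 22464). Fitting only the compared groups gave 7 between ysE stages (10559 transcripts), with 1 residual degree of freedom. The replicate block gave 3 for EBs against liver (10516 of 23018 transcripts), 9 between mesoderm and E9.25 ysE (12279 of 21824), 6 between EBs and mesoderm (6942 of 23522), 5 between EBs and E9.25 ysE (12532 of 23306), and 0 between EB days, the one comparison where letters pair the samples, with no call changed.

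Over all transcripts the calls moved by more than 1.5 times as follows: 7613 for mesoderm against E9.25 ysE became 4021 to 4869 without 1 of its libraries, 13160 for these groups alone and 12279 with the block. For EBs against E9.25 ysE 12500 became 7793 and 7603 without its replicate A or B, for EBs against E12.5 ysE 9932 became 6344 for these groups alone, for EBs against liver 11297 became 6668 without liver B, and for EBs against mesoderm 7187 became 2671 and 2512 without mesoderm A or B. Between ysE stages 2106 became 349 and 390 without E9.25 ysE A or B, 1268 and 1258 without mesoderm A or B, 3937 with DESeq2 and 10559 for these groups alone. Between EB days 0 became 145 with DESeq2 and 42 without d15 replicate B.

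Signs changed for Igfbp1 in EBs against E9.25 ysE (-0.39 with the replicate block, -1.66 among dUTP libraries), Igfbp6 in the same comparison (-0.12 among dUTP libraries), Insr in EBs against liver (0.073 among ScriptSeq libraries) and Igfbp6 between EB days (0.072 with the replicate block). Leaving out 1 library gave ranges across 0 in log2 fold change: Igfbp1 -1.34 to 0.95, Igfbp6 -0.054 to 0.51 in EBs against E9.25 ysE, and Igfbp1 -0.31 to 2.04 in EBs against liver, and Igfbp2 -0.49 to 0.057, Igfbp4 -0.031 to 0.27 between ysE stages, and Igfbp7 -0.16 to 0.39 in liver against E12.5 ysE, and Igf1 -0.66 to 2.95, Igf1r -0.37 to 0.13, Insr -0.12 to 0.63, Igfbp2 -0.18 to 0.16, Igfbp3 -0.53 to 0.41, Igfbp4 -0.70 to 1.81, Igfbp5 -0.80 to 0.31, Igfbp6 -0.68 to 0.83 between EB days. With DESeq2's size factors in edgeR the median of all transcripts between ysE stages shifted by 0.16 (log2), and no sign changed. With a pseudocount of 0.1, 17 of the 30 most alike genes were named again. The promoter median of the genes with a 500 bp window in place of 1 kb was 65% in ysE and 44.2% in liver, from 37.5% and 35.0%. The 37.5% is the mean of 20% (CxF) and 55.1% (FxC). In ysE and liver the 500 bp values rest on 4 promoters per library, against 7 and 8 in ysE and 6 and 5 in liver with 1 kb. The cause of these changes was not tested. Depth limits the promoter methylation values, with 0 to 54 reads, and the count of 0 for Igf1 in E12.5 ysE.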
